A study of Mus musculus with 8 samples.

Results

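The genes described here are 43 genes of the motile cilium. They were taken as a fixed list of names, and their members include the transcription factors, dynein arms, radial spokes, central apparatus, tektins and assembly factors of this organelle. All 43 were present in both gene tables, among 27998 genes of the single-cell table and 55450 genes of the bulk table. The study profiled the mouse median eminence (ME), the floor of the third ventricle that is lined by Rax+ tanycytes. For single cells, the ME of 10 wild-type female C57BL/6 mice (C57BL/6N in the study's methods), 2 months of age, was pooled into 1 droplet library of 990 cells. For bulk RNAseq, each library came from the ME of a single C57BL/6 mouse labelled as 2 months of age, with 3 control libraries of genotype WT and 4 libraries labelled Rax::BrafV600E mutant. The mutant mice carried Rax-CreERT2, in which tamoxifen-induced Cre is made from the Rax locus and so acts in tanycytes, and the BrafV600E allele, and the study's methods place the bulk tissue of both groups at 2 months after tamoxifen. Which alleles the controls carried beyond the label WT is not given in the sources used here. The sex of the bulk mice is not given either.

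A motile cilium is built on a ring of paired microtubules around a central pair. Dynein arms, fixed to the outer doublets, slide them past each other, while radial spokes and the central apparatus set the rhythm of the beat and the nexin links hold the doublets together. Foxj1 is the transcription factor that switches on this gene program, and Rfx2 and Rfx3 bind the X-box of cilia gene promoters. In the ventricular wall, multiciliated ependymal cells beat to move cerebrospinal fluid. Tanycytes are ependymal cells with a long basal process, and those on the ME floor carry far fewer cilia than multiciliated ependymal cells. Most other cells bear a non-motile primary cilium, which shares the intraflagellar transport machinery but lacks most of the 43 genes.

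The single-cell library held 9846289 UMIs (transcripts counted once by their molecular identifier), between 3284 and 57119 in a cell, with a median of 2356.5 genes per cell. Cells fell into 12 clusters, which were made without the 43 genes and without a further list of motile cilia genes. Genes on neither list stayed in, so cilia genes among them could still shape the clusters. Tanycyte markers stood at 3 times the level of all other cells or more in 2 clusters. The tanycyte-like cluster 4 had 72 cells, a median of 12389 UMIs and 8 of 10 tanycyte markers, and was led by Cyr61, Sprr1a, Fndc3c1 and Dio2. Cluster 1 had 155 cells, a median of 7236 UMIs, 9 of 10 tanycyte markers, 3 of 8 ependymal markers and 3 of 7 astrocyte markers, and was led by Cfap126, Gm11266 and Dynlrb2. It met the marker limit for more than 1 list, with the largest share for tanycyte markers, and cilia genes are among its leading genes. It is therefore called cluster 1 here and given no single cell type. With 1 library, no test was run between clusters. Levels are UMIs scaled to a common total per cluster (CPM), with exact Poisson 95% intervals, which cover counting error only. Erythrocyte-like cells, which should lack these genes, gave the background of free RNA.

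Motile cilia transcripts were highest in cluster 1. The 43 genes summed to 1057 CPM (95% interval 999 to 1117) in cluster 1 and 379 CPM (343 to 418) in the tanycyte-like cluster 4, against 22.4 CPM (16.5 to 29.8) in erythrocyte-like cells. Neuron-like cells reached 536 CPM and pars tuberalis-like cells 431 CPM. The remaining clusters lay between 114 and 251 CPM. The order of these clusters rested in part on Tppp3 and Rsph9. Without these genes the sums were 891 CPM in cluster 1 and 290 CPM in cluster 4. Pars tuberalis-like cells were then at 281 CPM and neuron-like cells at 209 CPM. Of the 3164 UMIs of these genes, 52.0% were in clusters 1 and 4, which held 22.6% of all UMIs. Of the 36 members with at least 10 UMIs, 23 were highest in cluster 1 and 24 in cluster 1 or 4. Among all 14332 genes with at least 10 UMIs, 12.2% were highest in cluster 1 and 18.6% in cluster 1 or 4. All 43 members had a UMI, and 7 had fewer than 10.

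**Figure D1:**
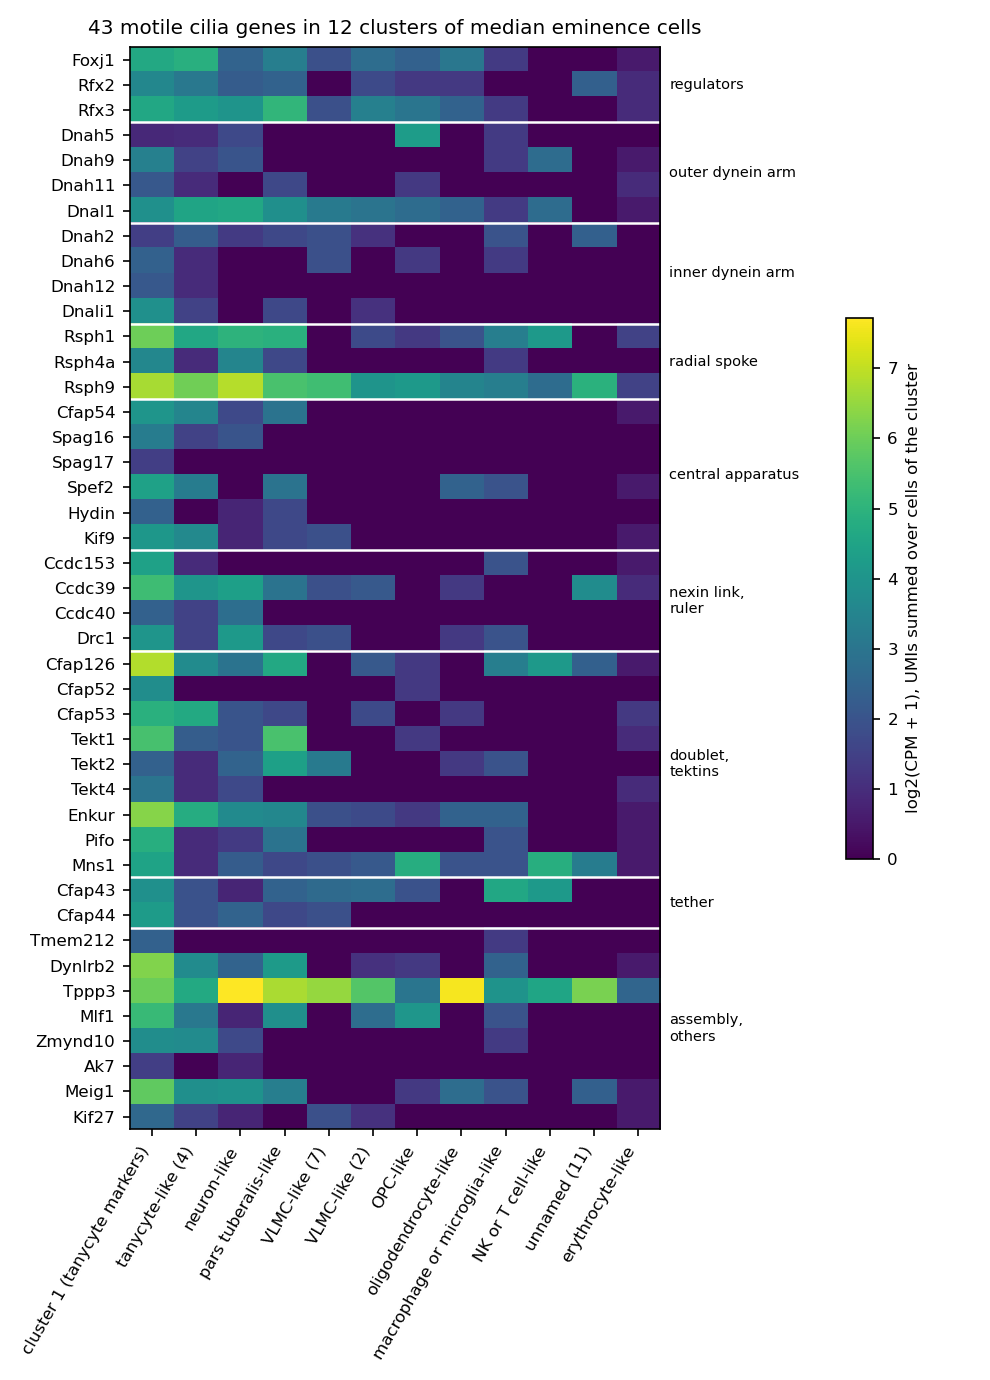
Level of each of the 43 genes (rows, grouped by role) in each of the 12 clusters (columns), as log2(CPM + 1) of UMIs summed over the cells of the cluster. The column of cluster 1 is the brightest for 30 of the 43 genes, while Tppp3 and Rsph9 are brightest in neuron-like cells.

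For each of the 3 regulators, the level in cluster 1 was within 1.5 times of its own level in cluster 4. Foxj1 (GRCm38 chr11:116330704-116335399, minus strand) was at 24.6 CPM (16.5 to 35.3) in cluster 1 and 28.6 CPM (19.3 to 40.8) in cluster 4, and 69.4% of its 85 UMIs lay in these clusters. It had a UMI in 12.9% of cells of cluster 1, 13.9% of cells of cluster 4 and 0.415% of erythrocyte-like cells (median depths 7236, 12389 and 7747 UMIs). Neuron-like cells, with a median of 31422 UMIs, had it in 12.2% of cells but at 4.49 CPM. Rfx2 (chr17:56775897-56831013, minus strand) was at 11.02 CPM in cluster 1 and 7.62 CPM in cluster 4. Rfx3 (chr19:27761721-28011166, minus strand) was at 23.7 CPM and 18.1 CPM in these clusters. Its highest level was in pars tuberalis-like cells, at 33.2 CPM (18.6 to 54.7), an interval that overlaps that of cluster 1 (15.8 to 34.3). Of the related factors, Rfx1 did not exceed 7.98 CPM in any cluster, and Rfx4 reached 9.93 CPM in oligodendrocyte precursor (OPC)-like and 11.1 CPM in pars tuberalis-like cells but 0.448 CPM in clusters 1 and 4 together.

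The axoneme genes, unlike the regulators, were mostly higher in cluster 1 than in cluster 4. Among the 25 members with at least 30 UMIs, 16 were over 2 times higher in cluster 1 (ratio of CPM plus 1) and 7 were within 1.5 times. The regulators Foxj1, Rfx2 and Rfx3 were among these 7. A gene high in cluster 1 reaches 30 UMIs more easily, and the share of all genes at such ratios was not computed. The counts therefore have no background beside them. Cfap126, also called Flattop, which lies on the inner wall of the doublets (chr1:171113918-171126967, plus strand), was at 114 CPM (95.9 to 135) in cluster 1 and 12.4 CPM (6.59 to 21.2) in cluster 4. Dynlrb2, a dynein light chain (chr8:116504974-116515915, plus strand), was at 75.4 CPM (60.6 to 92.8) and 12.4 CPM (6.59 to 21.2). Tekt1, a tektin filament protein, was at 43.2 and 3.81 CPM, Pifo at 28.0 and 0.952 CPM, Mns1 at 21.2 and 0.952 CPM, and Cfap52 at 12.7 CPM and 0. The counting intervals of these 6 genes did not overlap, but clusters 1 and 4 are groups of cells in 1 library. The members nearest to equal were Zmynd10, a factor that assembles dynein arms (12.7 and 12.4 CPM), and Cfap53 (28.8 and 24.8 CPM). Dnal1, a light chain of the outer arm, was lower in cluster 1 (13.6 CPM) than in cluster 4 (21.9 CPM), with overlapping intervals.

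Of the radial spoke genes, Rsph1, a head protein of the spoke, was at 63.6 CPM (49.998 to 79.7) in cluster 1 and 23.8 CPM in cluster 4. Rsph9 was at 103 CPM (85.9 to 123) in cluster 1, 64.8 CPM in cluster 4 and 115 CPM (97.7 to 135) in neuron-like cells. Rsph4a was at 11.02 CPM in cluster 1 and 10.5 CPM in neuron-like cells.

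The heavy chains of the dynein arms, which are among the longest transcripts of the genome, had few UMIs in this 3′ library. Dnah9 had 20 UMIs, Dnah2 14, Dnah6 9, Dnah11 9 and Dnah12 5, and none of them passed 9.32 CPM in any cluster. Hydin and Spag17, 2 large proteins of the central apparatus, had 7 and 2 UMIs. Of the other members, Enkur stood at 79.7 CPM in cluster 1, Meig1 at 56.8 CPM, Ccdc39, which with Ccdc40 forms the molecular ruler of the doublet, at 39.0 CPM, and Spef2 at 20.3 CPM.

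The members not yet described were also mostly highest in cluster 1. Mlf1 was at 35.6 CPM there, Cfap44 at 17.8 CPM, Kif9, a kinesin, at 16.1 CPM, Cfap54 at 15.3 CPM and Dnali1, an inner arm light intermediate chain, at 13.6 CPM. Spag16, a protein of the central apparatus, was at 8.48 CPM, Tekt4 at 6.78 CPM and Kif27, also a kinesin, at 5.09 CPM. Ak7, an adenylate kinase, had 3 UMIs in all. Drc1, a part of the nexin links, was at 15.3 CPM in cluster 1 and 17.2 CPM in neuron-like cells. Ccdc40 was at 4.24 and 5.98 CPM in these clusters.

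Several members were not confined to clusters 1 and 4. Tppp3, a tubulin-binding protein, had the most UMIs of the list (688) and was highest in neuron-like cells (211 CPM) and oligodendrocyte-like cells (197 CPM), with 14.5% of its UMIs in clusters 1 and 4. Without Tppp3 these clusters held 62.4% of member UMIs. Its relative Tppp reached 307 CPM in oligodendrocyte-like cells and 4.04 CPM in clusters 1 and 4. The pair of dynein light chains differed too: Dynlrb1 was at 171 to 515 CPM in every cluster but the erythrocyte-like, whereas Dynlrb2 did not pass 17.7 CPM outside cluster 1. Dnah5, an outer arm heavy chain, had 13 of its 19 UMIs in OPC-like cells, at 18.4 CPM (9.82 to 31.5), and at most 2.24 CPM elsewhere. Cfap43, with 50 UMIs over all cells, was highest in macrophage or microglia-like cells, at 23.6 CPM. Mns1 was highest in natural killer (NK) or T cell-like cells, at 27.9 CPM, and next in OPC-like cells, at 26.9 CPM. The 31 NK or T cell-like cells held 21 UMIs of all the members together, so this order rests on few UMIs. Of the 67 UMIs of Mns1, 38.8% were in clusters 1 and 4.

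In OPC-like cells, Mns1 and Mlf1 were seen only in cells that also had a UMI of the proliferation gene Mki67. All 19 UMIs of Mns1 and all 11 of Mlf1 came from the 11 cells with Mki67, and the 49 cells without it had 0. Cells with Mki67 had a median of 17691 UMIs and those without 10097, and the part of this depth gap was not tested. Dnah5 had 5 UMIs in the cells with Mki67 (30.6 CPM) and 8 in those without (14.8 CPM).

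Pars tuberalis-like cells, endocrine cells of the pituitary stalk, shared a subset of the genes. Tekt1 was at 44.2 CPM (27.0 to 68.3), an interval that overlaps that of cluster 1 (32.2 to 56.8), and Tekt2 at 19.9 CPM. Free RNA of tanycytes was gauged with Rax, which had a UMI in 22 of the 54 cells. At a median of 5330 UMIs, a cell with no Rax UMI can still hold such RNA. The counts therefore do not tell whose RNA was read. Of 20 Tekt1 UMIs in these 54 cells, 16 came from the 32 cells with no Rax UMI, as did 10 of 15 Rfx3 UMIs and 29 of 48 Tppp3 UMIs. For Tekt2 it was 5 of 9 UMIs and for Dynlrb2 3 of 8. Folr1, a gene of the choroid plexus list, had 57 of its 63 UMIs in this cluster.

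Other genes of the motile cilium also had their highest sum in cluster 1 (856 CPM), with 482 CPM in pars tuberalis-like cells, 478 CPM in neuron-like cells and 269.5 CPM in cluster 4. From a list of 72 genes that hold none of the 43, 71 were in the table and 66 had a UMI, of which 46 were highest in cluster 1 and 1 in cluster 4. The median log2 ratio of CPM plus 1 between clusters 1 and 4 together and all other cells was 1.56 for these 66 genes and 1.83 for the 43 members. For 39 genes of the primary cilium and intraflagellar transport it was 1.28, with 16 highest in cluster 1 and 25 in cluster 1 or 4, and for all 18181 genes with a UMI 0.29.

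Promoters were searched for RFX and FOX motifs, since the 3 regulators are members and the genes were high in the same cluster. RefSeq windows (GRCm38.p6) of 300 bases, from 250 before to 50 after a start, were at hand for 37 of the 43 genes. An RFX pair, GTNNCC and GGNNAC separated by 0 to 3 bases and read on both strands, was in the windows of 10 of these 37 genes (27.0%), against 4.38% of 27025 genes. It was in 24.6% of the other motile cilia genes, 23.5% of the primary cilium genes and 0 of 8 tanycyte markers. The single RFX motif GTTGCC, which overlaps the pair where its letters match, was in 18 of 37 genes (48.6%) against 14.1% of all genes. It was also in 45.6% of the other motile cilia genes, 44.1% of the primary cilium genes and 0 of 8 tanycyte markers. The FOX motif TGTTTAC was in 3 of 37 (8.11%), namely Cfap43, Mlf1 and Ak7, against 4.05%. It was in 7.02% of the other motile cilia genes, 0 of 34 primary cilium genes and 1 of 8 tanycyte markers. These matches describe letters in a window and are not binding sites. To show how closely they match, the RFX pair of each of the 10 genes is given in capitals, 5′ to 3′ on the strand of the gene.
Cfap126: tgttcaagGTATCCATGGCTACttctcagt
Pifo: gcggttccGTTCCCTTGGCAACgtagtaca
Tekt4: ccccacctGTGTCCTGGGAAACaaactcat
Rsph9: ggctcaggGTCTCCATGGAGACagcttcta
Zmynd10: gctccctcGTTTCCATGGCGACgacgactc
Kif9: ggcttcctGTTGCCATGGCGACtgtgtaca
Rfx2: tagagactGTAGCCGTGGAGACtg
Cfap43: ggttcccgGTCTCCAGGATACaggtgtaa
Mns1: ttttggcgGTTGCCGGGACACagcttaaa
Spef2: gcaactgGTTGCCCTGGGCGACgggaaga
The first 7 have exactly 2 bases between the GTNNCC and GGNNAC parts, Cfap43 and Mns1 have 1 and Spef2 has 3. Coordinates below cover the whole printed stretch with its lower-case flanks, while distances to the start are those of the pair. Starts are those of the RefSeq windows. For Cfap126, Pifo, Tekt4, Cfap43 and Mns1 the gene begins further upstream in GENCODE M21. In Cfap126 (chr1:171122955-171122984, plus strand), the member with the highest level in cluster 1, the pair lay 82 to 69 bases before 1 of the starts of the gene. In Pifo (chr3:106001496-106001525, minus strand) it lay 20 to 7 bases before a start, in Tekt4 (chr17:25471422-25471451, plus strand) 160 to 147 bases and in Cfap43 (chr19:47837413-47837441, minus strand) 72 to 60 bases before. In Zmynd10 (chr9:107547296-107547325, plus strand) it began at the first transcribed base. The pair of Rsph9 (chr17:46144185-46144214, minus strand) spanned the start. For Kif9 (chr9:110476959-110476988, plus strand) it was in the windows of both of its starts. Those of Mns1 (chr9:72438536-72438564, plus strand), Spef2 (chr15:9748839-9748867, minus strand) and Rfx2 (chr17:56830959-56830982, minus strand) lay within the first 50 transcribed bases.

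Tanycyte marker cells were then divided by the number of the 43 genes they carried. Each cell was thinned to 3000 UMIs, so that depth did not set the number. Erythrocyte-like cells had 0 members in 224 of 241 cells and 1 member in the other 17. A cell with 2 or more members was therefore counted as having them. This held for 99 of 227 cells of clusters 1 and 4 (43.6%, 95% Clopper-Pearson interval 37.1 to 50.3). It held for 78 of 155 cells of cluster 1 (50.3%, 42.2 to 58.4) and 21 of 72 cells of cluster 4 (29.2%, 19.05 to 41.1). Among thinned cells, neuron-like cells reached 38.8% and pars tuberalis-like cells 25.9%, and the other clusters stayed at 9.43% or below. These shares count Tppp3 and Rsph9, which were highest in neuron-like cells. Without thinning, where the limit was 2 members, the share was 64.5% in cluster 1, 62.5% in cluster 4, 87.8% in the deeper neuron-like cells, 38.9% in pars tuberalis-like cells and at most 13.6% elsewhere.

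The number of members per cell had no gap that would separate 2 kinds of cell. In clusters 1 and 4, 60 cells had 0 members, 68 had 1, 37 had 2, 19 had 3, 14 had 4, 13 had 5 and 16 had 6 or more. The 105 cells at 1 or 2 members lay next to the limit. Rax had a UMI in 93 of the 99 cells with the members (93.9%) and in 121 of the 128 cells without them (94.5%). Cells with 5 or more members, a line set after the values were seen, numbered 29, of which 25 had a Rax UMI.

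**Figure D2:**
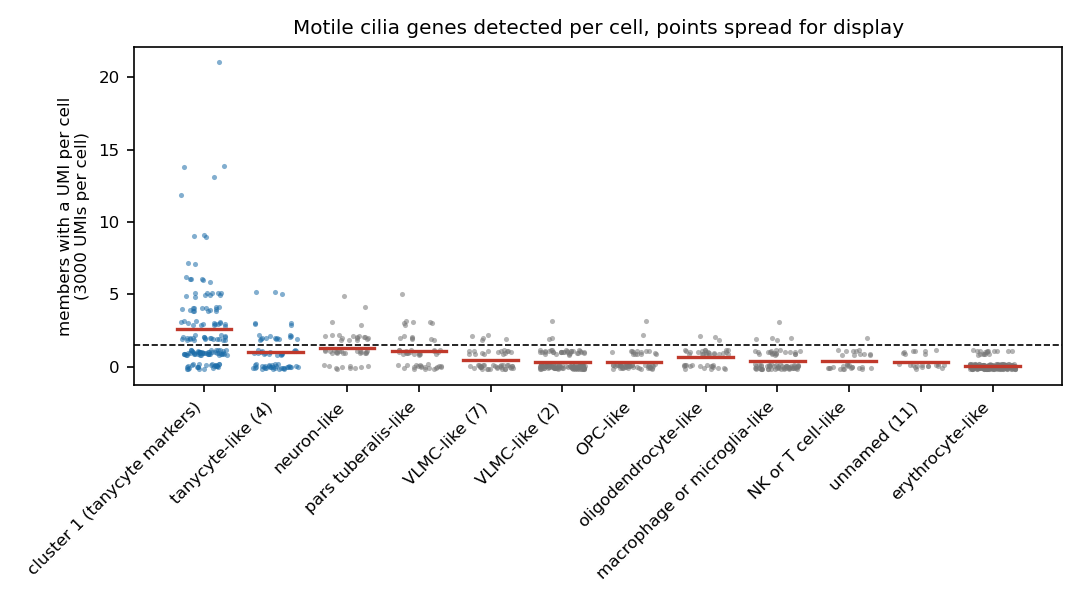
Number of the 43 genes with a UMI in each cell after thinning to 3000 UMIs (vertical axis), by cluster, with the cluster mean as a red line, the limit as a dashed line and points spread for display. Cells of cluster 1 reach 21 members, and erythrocyte-like cells have at most 1.

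A single cell of cluster 1 stood apart. It carried 26 of the 43 genes, 21 after thinning where the next cell had 14, and 104 of its 4666 UMIs were of these genes (22289 CPM). A further 30 genes of the other motile cilia list had 108 UMIs in it. It was the only 1 of 227 cells with no UMI of Rax, Scn7a, Col25a1 or Mia, the tanycyte markers of the study, and it was not called a doublet. The cell held 17 of the 28 UMIs of Ccdc153 and 5 of the 6 of Tmem212, both used as markers of multiciliated ependymal cells. It also held 13 of 75 Mlf1 UMIs, 12 of 172 Rsph1 UMIs and 11 of 122 Dynlrb2 UMIs. Without it, the 43 genes summed to 973 CPM in cluster 1, Ccdc153 fell to 5.96 CPM from 20.3 CPM there, and Tmem212 had no UMI left in the cluster.

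Within cluster 1, cells with the members had other levels of genes that were not used to divide them, given here without a test. The other motile cilia genes summed to 1230 CPM (1144.5 to 1320) in the 78 cells with the members and 436 CPM (382 to 494) in the 77 without. Frzb, an inhibitor of Wnt ligands, was at 356 CPM (310 to 406) and 166 CPM (134 to 203). Crym, a thyroid hormone-binding protein, was at 78.5 and 21.6 CPM, and Hspa2 at 157 and 37.8 CPM. Scn7a, a sodium channel, went the other way, with 1393 CPM (1302 to 1489) in cells with the members and 2257 CPM (2134 to 2386) in those without, as did Col25a1 (1022 and 1325 CPM). Rax was at 679 CPM (616 to 747) and 614 CPM (550 to 683), with overlapping intervals, and the primary cilium genes were at 2085 and 1890 CPM.

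In the tanycyte-like cluster 4 the same division gave values that lay closer together for the cilia genes. The other motile cilia genes summed to 281 CPM (230 to 340) in the 21 cells with the members and 263 CPM (226 to 305) in the 51 without. Frzb was at 80.3 and 157 CPM, Hspa2 at 16.1 and 29.6 CPM, Crym at 2.68 and 8.87 CPM and Scn7a at 1767 and 1515 CPM. The cells with the members were deeper, with a median of 16502 UMIs against 11463, and the part of depth in these values was not tested. The difference between clusters was not tested, since all cells came from 1 library.

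**Figure D3:**
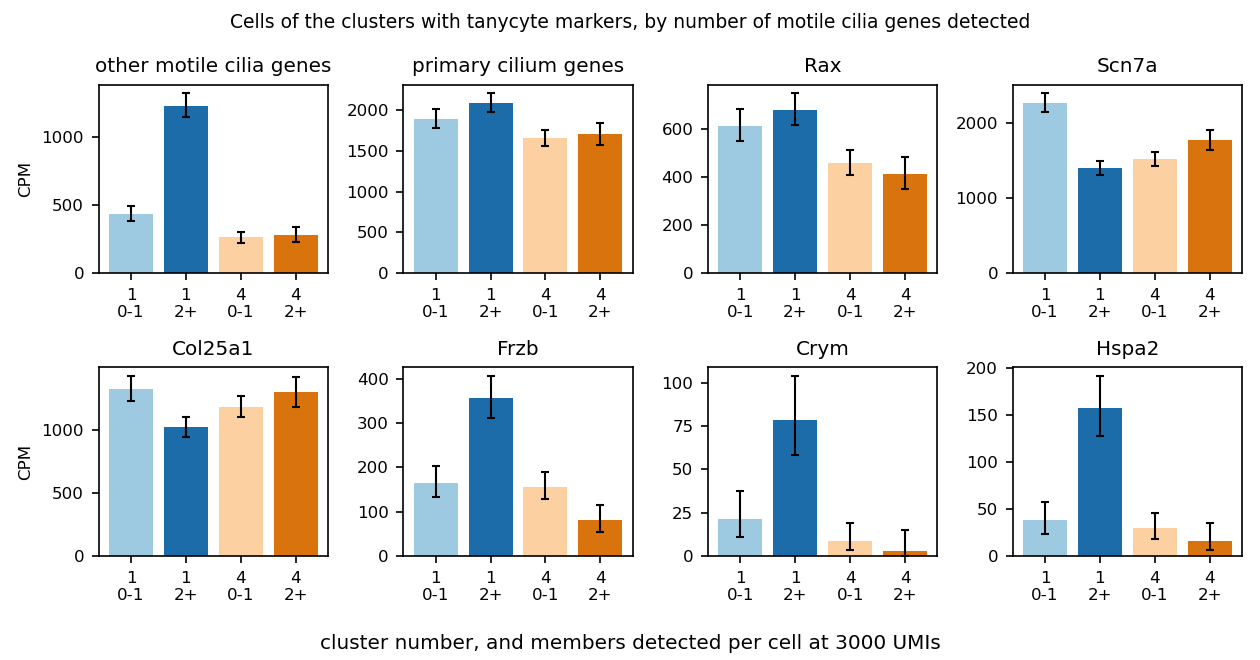
CPM (bars, from 0) with exact Poisson 95% intervals (lines) of 2 gene lists and 6 genes in cells of clusters 1 and 4 with 0 or 1 member (0-1) and with 2 or more (2+) at 3000 UMIs. The other motile cilia genes stand at 1230 against 436 CPM in cluster 1 and at 281 against 263 CPM in cluster 4. Of the 768 UMIs behind the 1230 CPM, 108 came from a single cell.

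Across all 6213 genes that could be ranked between the 99 cells with and the 128 cells without the members, those with the highest ratio were Rorb, 4932438H23Rik, Riiad1, S100a6, 9130008F23Rik, Gria2, Crym, Hspa2, Rpgr and Chga. Cluster 1 gave 78 of the 99 cells with the members and 77 of the 128 without, so the ranks also hold differences between clusters. Within cluster 4, Riiad1 (5.35 and 14.8 CPM), Crym and Hspa2 were lower in cells with the members, and S100a6 was at 153 and 105 CPM. Rorb, a nuclear receptor, was at 41.1 CPM in cells with the members and 8.12 CPM in those without. 4932438H23Rik was at 68.1 and 15.4 CPM, with 72.3 and 13.3 CPM within cluster 4 and 65.7 and 18.002 CPM within cluster 1. S100a6, a calcium-binding protein, was at 560 and 162 CPM. Rpgr, a ciliary GTPase regulator, was at 41.1 and 12.99 CPM. The value of Chga rested on 1 cell, which held 291 of its 434 UMIs. The lowest ratios were those of Ccl2, Cldn3, Acsl5, Kif5a, Socs1, Cxcl10, Iigp1, Gmcl1, Gbp3 and Frat2. Ccl2, a chemokine, was at 7.01 and 36.5 CPM. For Cxcl10 (30.1 and 91.7 CPM) the direction turned within cluster 1, at 24.0 and 7.201 CPM. Cxcl10 was at 161 CPM in cells of cluster 4 without the members and at 40.2 CPM or below in the other 3 sets of cells. A gene could reach 50 UMIs mainly through the set of cells where it was high, such as Rorb (41 and 10 UMIs) or Ccl2 (7 and 45). Several genes were read mostly in other clusters. Clusters 1 and 4 held 5.41% of the UMIs of Chga, 8.47% of Gria2, 15.3% of Rorb and 4.01% of Ccl2. They held 80.6% of those of 4932438H23Rik and 87.9% of 9130008F23Rik. The part of free RNA in these ratios was not tested. These ranks are a description, since cells are not replicates.

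Cells with the regulator Foxj1 carried more of the other 42 members. In clusters 1 and 4, the 30 cells with a Foxj1 UMI had a mean of 4.63 other members after thinning and the 197 cells without it 1.61. In cluster 1 the means were 5.70 in 20 cells and 2.03 in 135 cells, and in cluster 4 they were 2.50 in 10 cells and 0.694 in 62 cells. The cells with a Foxj1 UMI were also deeper (median 10906 against 7715 UMIs), and Foxj1 was read before thinning.

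The bulk libraries had between 4928456 and 13816596 counts and between 17874 and 40852 genes with a count. Control 3 was the deepest library and had the fewest genes. Fewer cells of a type and less RNA per cell cannot be told apart in such libraries. The libraries were not equal in long transcripts, as seen in the members themselves. The 9 members whose longest transcript exceeds 8000 bases summed to 194, 58.2 and 17.6 CPM in controls 1 to 3 and to 68.0, 127, 146 and 151 CPM in mutants 1 to 4. Controls 2 and 3 lay below every other library. Their median difference between control 3 and control 1 was -4.88 on the log2 scale (CPM with a prior count of 2), against -0.83 for all 1041 genes tested of this length. The 15 members of up to 2000 bases had a median difference of 0.20, against -0.04 for all genes. Across the 43 genes, which share the libraries and are not independent, log2 length and this difference had a Pearson r of -0.63 and a Spearman rho of -0.63.

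In control 3, 7 members had 0 counts: Ak7 (3099 bases), Dnah6 (12652), Spag17 (7862), Ccdc39 (3606), Dnah12 (12009), Dnah11 (14072) and Ccdc40 (4979). In the other 6 libraries these genes had between 5 and 302 counts. Hydin had 160 counts in control 1, 9 in control 2 and 1 in control 3. It was at 18.1, 0.799 and 0.0856 CPM in the controls and at 5.50, 13.03, 15.2 and 14.1 CPM in the mutants. Dnah2 (13704 bases) was the exception among the long members, with 5.76, 7.46 and 6.08 CPM in the controls.

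**Figure D4:**
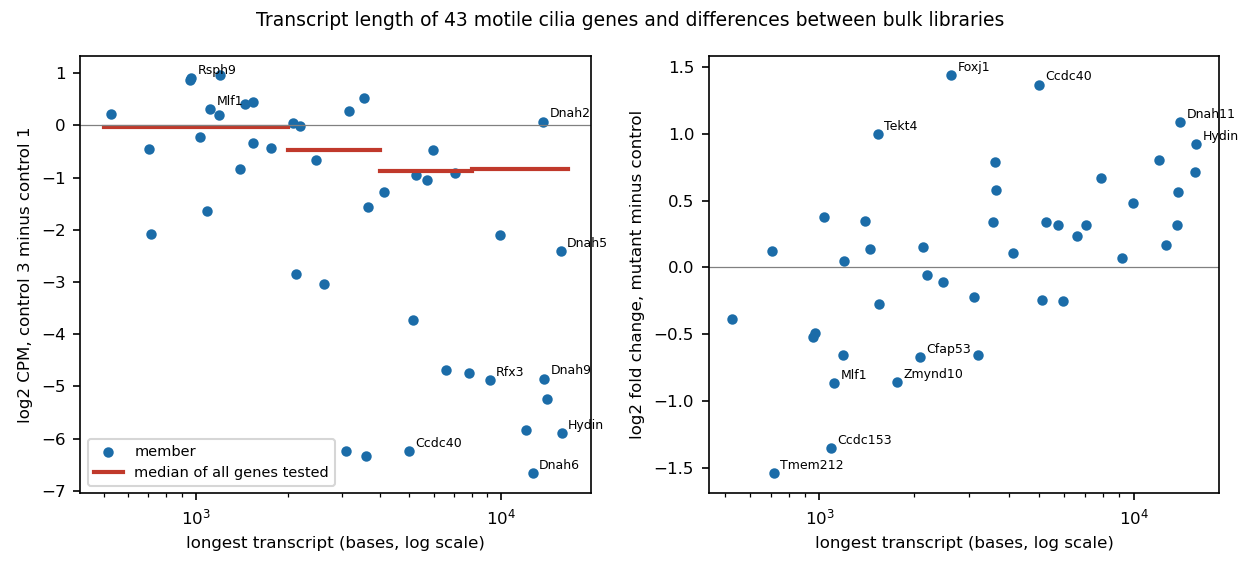
Longest transcript of each of the 43 genes (horizontal axis, log scale) against the log2 difference between control 3 and control 1 (left) and the log2 fold change between mutant and control (right). On the left most members over 8000 bases lie far below the red lines, the medians of all genes tested in each range of length.

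The comparison of mutant with control asks whether the genes changed in the BrafV600E ME. No member passed edgeR's quasi-likelihood test at an adjusted p below 0.05 (Benjamini-Hochberg over 20466 genes, two-sided), and adjusted p-values ran from 0.631 to 0.989. The background was 0% of all genes at this threshold, so the test did not set the members apart from other genes. The study describes the mutant tissue as a papillary craniopharyngioma-like tumor and reported differentially expressed genes against normal tissue. Other settings, DESeq2 among them, also called genes outside the list, as given in the last section. At an unadjusted p below 0.05 there were 0 members in either direction, against 4.23% of all genes higher and 3.89% lower. Without control 1 this count was 7 of 43 (16.3%), where 29.3% of all genes were at such a p. It was 3 (6.98%) without control 2, 2 (4.65%) without control 3 and 5 (11.6%) without mutant 1, beside 7.28%, 7.96% and 8.92% of all genes. DESeq2, which gave a p to 41 members, had 4 (9.76%, against 7.71% of all genes), namely Foxj1, Ccdc153, Tmem212 and Tekt4. In each of these fits 0 members passed the adjusted threshold. Of the 43 log2 fold changes 27 were positive and 16 negative, with a median of 0.16 beside 0.13 for all genes. The members summed to 1104, 736 and 746 CPM in the controls and to 989, 866, 844 and 787 CPM in the mutants, and the mutants lay within the range of the controls.

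Only 2 members had groups that did not overlap. Tekt4, a tektin, was at 8.25, 5.95 and 6.50 CPM in the controls and 13.3, 10.3, 20.4 and 11.3 CPM in the mutants. All mutants were higher, with a log2 fold change of 0.999 ± 0.469 (SE) and an adjusted p of 0.632 in edgeR. Zmynd10 was at 6.55, 9.68 and 4.79 CPM in the controls and 4.10, 4.59, 4.01 and 2.68 CPM in the mutants, all lower (log2 fold change -0.86 ± 0.62, adjusted p 0.782 in edgeR). Among all genes tested, 5.83% lay apart with the mutants higher and 3.18% with the mutants lower, so 1 of 43 in each direction is no more than the background.

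Foxj1 had the largest positive log2 fold change of the list, 1.44 ± 0.71 (edgeR adjusted p 0.648). It was at 13.6, 4.62 and 1.45 CPM in the controls and at 14.3, 30.5, 11.9 and 13.9 CPM in the mutants. The groups overlapped through control 1, which lay above mutant 3. Without control 1 the log2 fold change was 2.52 and without control 3 it was 0.98. Without mutant 2, the highest library, it was 1.02. Rfx2 was at 42.9, 13.1 and 17.7 CPM in the controls and 36.2, 25.9, 25.4 and 18.2 CPM in the mutants. Rfx3 spanned 64.4, 22.1 and 1.97 CPM in the controls and 13.2, 48.5, 34.6 and 27.7 CPM in the mutants. Both had log2 fold changes near 0 (0.11 and 0.07). Rfx4, which is no member, was at 15.9, 16.5 and 15.8 CPM in the controls and at 50.7, 57.7, 71.1 and 43.3 CPM in the mutants. The groups did not overlap, with a log2 fold change of 1.79 ± 0.31 and an edgeR adjusted p of 0.131.

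Of the next 4 positive values, those of Ccdc40, Dnah11 and Hydin belonged to genes at or near 0 in control 3, while the fourth was that of Tekt4. Ccdc40 was at 16.6, 9.42 and 0 CPM in the controls and 27.6, 31.5, 19.9 and 10.4 CPM in the mutants, with a log2 fold change of 1.37 ± 1.07. Without control 3 it was 0.81. Dnah11 (1.09 ± 1.15) was at 0.49 and Hydin (0.92 ± 1.18) at 0.33 without control 3. Without control 1 the values were 2.23 for Ccdc40, 2.08 for Dnah11 and 4.68 for Hydin, so the size of each rested on single controls. None passed the test in either case. Of the remaining dynein heavy chains, Dnah12 was at 0.80, Dnah5 at 0.72, Dnah9 at 0.57, Dnah2 at 0.32 and Dnah6 at 0.17 log2, and none had a standard error below 0.6. Across the 43 genes, log2 length and the fold change had a Pearson r of 0.57 and a Spearman rho of 0.58. The part that the low long transcripts of controls 2 and 3 have in these values was not tested.

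The most negative values, those of Tmem212 and Ccdc153, belonged to genes that were highest in control 1. Tmem212 was at 34.9, 7.64 and 8.13 CPM in the controls and 13.3, 2.61, 3.84 and 3.22 CPM in the mutants (log2 fold change -1.54 ± 0.75). Ccdc153 was at 46.9, 8.97 and 14.8 CPM and 15.2, 8.02, 9.69 and 3.75 CPM (-1.35 ± 0.63). The edgeR adjusted p-values were 0.643 and 0.631. For both, mutant 1 lay above at least 1 control, and without control 1 the values were -0.46 and -0.39. Without mutant 1 they were -2.39 and -1.71. Control 1 was also the highest library in several marker lists, though not in all. Ependymal markers outside the list summed to 551 CPM in it and to 369 to 527 CPM in the other libraries. Endothelial markers were at 413 CPM against 76.0 to 307 CPM, and mural markers at 154 CPM against 66.4 to 148 CPM. Choroid plexus markers summed to 146 CPM in it. They were at 39.0 to 109 CPM in the other controls and 37.4 to 74.2 CPM in the mutants. In single cells, 62 of the 137 UMIs of this list were in pars tuberalis-like cells, so the list is not particular to choroid plexus. Pars tuberalis markers summed to 13262 CPM in control 1 against 802 to 4630 CPM in the other 6 libraries. The part of these cell types in the values of Tmem212 and Ccdc153 was not tested. Mlf1 was at 33.0, 16.3 and 40.9 CPM in the controls and 25.3, 11.05, 14.2 and 15.2 CPM in the mutants (-0.87 ± 0.43, edgeR adjusted p 0.648). Cfap53 was at 6.55, 12.1 and 6.76 CPM and 7.39, 7.09, 4.01 and 2.68 CPM (-0.67 ± 0.61, edgeR adjusted p 0.836). The groups overlapped for both.

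The genes given next include those with the most UMIs in cluster 1, and none of them passed the test either. Cfap126 was at 39.3, 32.1 and 33.9 CPM in the controls and 67.9, 31.6, 43.6 and 38.6 CPM in the mutants (0.37 ± 0.33). Dynlrb2 was at 36.4, 29.8 and 42.4 CPM and 40.4, 22.4, 24.9 and 23.1 CPM (-0.39 ± 0.33). Rsph1 was at 58.0, 44.1 and 66.6 CPM and 57.3, 29.9, 27.9 and 27.2 CPM (-0.66 ± 0.35), with 3 of 4 mutants below all controls. Tppp3 was at 181, 108 and 101 CPM and 181, 203, 125 and 151 CPM (0.35 ± 0.31). Rsph9 was at -0.49 ± 0.29, Kif9 at -0.66 ± 0.34, Pifo at -0.52 ± 0.42, Tekt1 at 0.14 ± 0.40, Enkur at 0.05 ± 0.59 and Meig1 at 0.13 ± 0.51 log2. Ccdc39 had a log2 fold change of 0.79. Over the 43 genes the standard error ran from 0.29 to 1.43, so the libraries limit what could be seen for many of them.

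**Figure D5:**
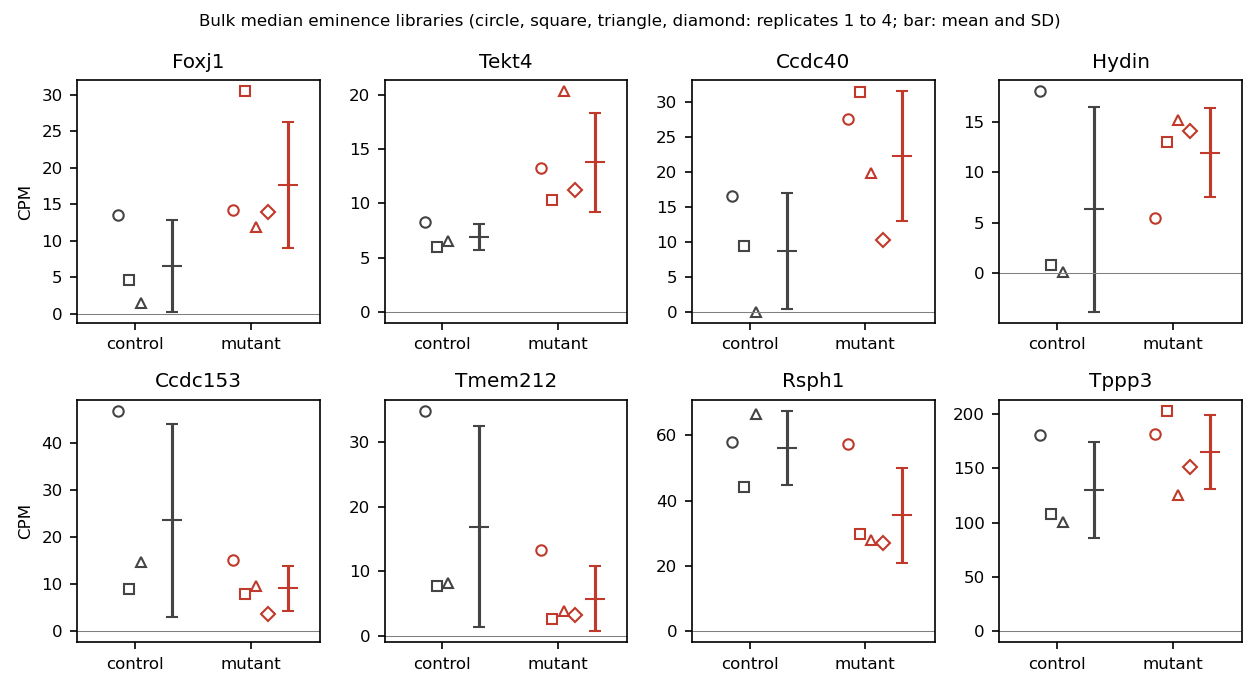
CPM (TMM-scaled) of 8 of the 43 genes in the 3 control and 4 mutant libraries, with the mean and SD beside the points. Foxj1 and Tekt4 have higher means in the mutants and Ccdc153 and Tmem212 lower ones, each resting on a wide spread among controls except for Tekt4.

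The other motile cilia genes gave the same count. Of 65 tested, 0 passed at an adjusted p below 0.05 and 0 at an unadjusted p below 0.05, with a median log2 fold change of -0.18. Of 40 primary cilium genes, 0 passed the adjusted threshold and 2 were lower at an unadjusted p below 0.05 (median -0.12). Of 10 tanycyte markers 3 were higher and 1 lower, and of 8 ependymal markers outside the list 0 were higher and 1 lower at an unadjusted p below 0.05. At this threshold OPC markers were higher in 5 of 6 and astrocyte markers in 4 of 7. Lower were oligodendrocyte markers in 5 of 6, pars tuberalis markers in 3 of 6 and vascular and leptomeningeal markers in 3 of 6. Endothelial and choroid plexus markers were lower in 2 of 6 each. Over all genes tested, 4.23% were higher and 3.89% lower at this threshold. None of the markers passed the adjusted threshold. The summed level of the astrocyte markers was 3744 CPM in the controls and 3273 CPM in the mutants on average. The part of these markers' cell types in the values of the 43 genes was not tested.

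Some members share reads or overlap with other genes. In GENCODE M21, 53.0% of the exon bases of Mns1 overlap Tex9 on the opposite strand, 20.8% of those of Tekt2 overlap Gm12945 16.9% of those of Ccdc39 overlap Ttc14, 10.1% of those of Zmynd10 overlap Gm34106 and 9.66% of those of Spag17 overlap Wdr3. Reads from such partners cannot be told apart without strand, and the bulk values of these genes are uncertain. At most 1.63% of the 50-base stretches of a member, those of Cfap43, were found in transcripts of another gene.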

How the data were processed

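The 43 members, the lists beside them and the tests were chosen with earlier results of these data known. For single cells, the authors deposited whole-number UMI counts per gene and cell, made with Cell Ranger (2.0.1 in the submitters' processing notes, which name GRCm38 and mm10). For bulk RNAseq (Smart-seq2, which amplifies full-length cDNA by PCR and has no UMIs), the authors deposited raw read counts per Ensembl gene, with no normalization. The aligner and counter are not given in the sources used here. All columns were used (0 left out). Members were matched by symbol and Ensembl identifier.

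Cells were clustered in Seurat 5.3.0 on counts log-normalized to 10000 per cell, with 20 components and a resolution of 0.8. Variable genes had a mean between 0.02 and 8 and a dispersion above 0.5, and the clusters were made without 34 motile cilia genes among 4844 variable genes. A cluster was named where at least 3 markers stood at 3 times the CPM of other cells. Cluster 1 met this for tanycyte, ependymal and astrocyte markers and was left unnamed. No barcode was repeated. Scrublet in scanpy 1.11.5 (expected rate 0.06) called 3 of 990 cells doublets, none with tanycyte markers, and all were kept. Thinning to 3000 UMIs used 1 seeded draw. Genes were ranked between cells with at least 50 UMIs over both groups and a pseudocount of 1 CPM.

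Bulk counts were tested with edgeR 4.0.16 (R 4.3.3; TMM, filter by group, quasi-likelihood test, Benjamini-Hochberg at 0.05). The standard error is the log2 fold change divided by the square root of F. P-values measure the spread between these samples, each from 1 mouse, and bulk reads are not independent molecules. DESeq2 1.42.0 and limma 3.58.1 were alternatives. Intervals and motif searches were computed in Python 3.11.15 with scipy 1.17.1, and positions and lengths came from GENCODE M21 (GRCm38). All members were named, and in the bulk test those with the 5 largest positive and 5 largest negative log2 fold changes in full. The fit, intervals and thinning were tested on simulated data. A count of 0 in clusters 1 and 4 allows up to 1.35 CPM, and in the bulk libraries up to 0.257 to 0.536 CPM, for counting error only.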

Additional observations from a re-analysis of the deposited data

Results flagged for a closer look

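In 4 genes, 1 of the 4 mutant libraries lay far from the other 3 by Dixon's ratio of the gap to the range. With 43 genes tested, chance flags about 1 in 20. Foxj1 was at 30.5 CPM in mutant 2 and between 11.9 and 14.3 CPM in the others. Mutant 1 was apart in the other 3 genes, with Tmem212 at 13.3 CPM against 2.61 to 3.84, Dynlrb2 at 40.4 CPM against 22.4 to 24.9 and Rsph1 at 57.3 CPM against 27.2 to 29.9.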

How the results depend on the processing

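No member passed the adjusted threshold under any of the 15 alternatives of the bulk test, and of 147 values for the 10 members with the largest changes none turned sign or passed it (lowest adjusted p 0.0742). Members at an unadjusted p below 0.05 numbered 0 in the test as reported. They were 1 (2.33%, beside 7.96% of all genes) with library sizes alone, 4 (9.3%, beside 9.71%) without a filter on low counts, 3 of 30 (10%, beside 11.9%) with at least 10 counts in every library, 4 of 41 (9.76%, beside 7.71%) in DESeq2, 5 (11.6%, beside 11.3%) in limma-voom and 0 to 7 with 1 library left out, the most without control 1 (16.3%, beside 29.3%). Over all genes the calls at the adjusted threshold were 0 as reported, 14 at an adjusted p below 0.1, 1 with upper-quartile scaling, 3 with library sizes alone, 240 without a filter, 13 with at least 10 counts in every library, 360 in DESeq2 and 0 to 45 with 1 library left out. The cause was not tested. The median log2 fold change of the members ranged from 0.04 to 0.42. With the replicate number as a block, 1 member (2.33%, beside 2.68% of all genes) was at an unadjusted p below 0.05 and 0 passed. The labels give same-numbered libraries no link but the number, and the correlations of their deviations were -0.45, -0.01 and -0.23. With so few libraries these correlations cannot tell whether the libraries were paired.

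In single cells, between 22 and 32 members were highest in clusters with tanycyte markers under all alternatives. The members summed to 738 CPM there, and to 677 CPM with 10 components, 880 CPM with thinned cells and 693 CPM without the cell with the most members, an alternative chosen after the data were seen. The share of cells with the members was 43.6%, and 63.9% without thinning, 12.3% at 10 or more members and 35.2% without 7 members that other cells also use. RFX pairs with exactly 2 bases between were in 18.9% of genes against 2.16% of all. They were in 17.5% of the other motile cilia genes and 23.5% of the primary cilium genes. Depth limits the 7 members with fewer than 10 UMIs.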
